A study of Mus musculus with 18 samples.

Results

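The 76 genes described here are named as initiation, elongation and termination factors of cytosolic translation, or as kinases, repressors and methyltransferases that act on them. They were taken from a count table of 55487 mouse genes by their symbols: Eif followed by a number from 1 to 6, Eef followed by 1 or 2, and Etf1, Gspt1, Pabpc1 and Pabpc4. A gene was kept by its symbol even where its function differs from its name, as for Eef1e1. The liver RNA came from 18 male C57BL/6J mice in 3 groups of 6, with 1 library per mouse. CON-GFP mice ate a purified control diet, FPC-GFP mice ate the FPC diet (fructose, palmitate and cholesterol, with fructose and glucose in the drinking water), and FPC-LIPA mice ate the FPC diet and overexpressed human LIPA, which encodes lysosomal acid lipase (LAL). The mice were bought at 7 weeks of age, and all of them received an AAV8 virus 1 week before 16 weeks of diet, carrying either GFP or human LIPA behind the hepatocyte promoter TBG. Livers were taken after a 4 h fast. The transgene was thus driven in hepatocytes, while the tissue sequenced was whole liver.

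Translation initiation starts when eIF2, bound to GTP and the initiator tRNA, joins the small ribosomal subunit with eIF1, eIF1A, eIF5 and the many-subunit scaffold eIF3. The mRNA is brought to this complex by eIF4E, which holds the cap, by the scaffold eIF4G and by the helicase eIF4A, while poly(A)-binding proteins hold the other end. The cell slows initiation through kinases that phosphorylate eIF2 and so block its exchange factor eIF2B, and through 4E-binding proteins that take eIF4E away from eIF4G when mTORC1 is inactive. In elongation eEF1A delivers aminoacyl-tRNA, the eEF1B subunits recharge eEF1A with GTP, and eEF2 moves the ribosome along. Messages of several of these factors, like those of all ribosomal proteins, belong to the terminal oligopyrimidine (TOP) class, which begins with a cytosine and a run of pyrimidines and is translated under the control of mTORC1.

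Total counts lay between 16632146 and 37739301 reads per library. All 10 hepatocyte markers, such as Alb and Apoa1, had a mean of at least 1 CPM (counts per M reads, scaled by TMM) in each group. The mouse Lipa row, which does not count the human transgene, spanned from 202.1 to 303.8 CPM in CON-GFP, from 240.2 to 406.2 CPM in FPC-GFP and from 254.2 to 384.9 CPM in FPC-LIPA, so the groups overlapped and the overexpression could not be checked here. Within FPC-LIPA, libraries 36, 37 and 39 stood apart from the other 15. Library 37 carries the title 37b, while its description has 37, and its sample sheet number lay far outside the 55 to 80 of all other libraries. Ribosomal protein genes took 6.34%, 7.97% and 8.02% of their counts, and at most 2.86% in any other library. The trend of log2 CPM on the GC content of a transcript was -0.53, -0.82 and -0.22 per 10 percentage points in these libraries, and it was -0.44 in CON-GFP 2 and between -0.14 and 0.41 in the others. The summed level of 5 red blood cell markers was 1817, 1927 and 2674 CPM in libraries 36, 37 and 39, while livers 31, 33 and 34 had 519.5 to 953.2 CPM and the GFP livers 283.1 to 582.5 CPM. The 5 markers did not move alike. Their log2 fold changes ran from -0.61 to 3.33 in FPC-LIPA against FPC-GFP and from -0.97 to 2.75 against CON-GFP. In each comparison 4 were above 0 and 1 below. The sum of 10 macrophage markers ran from 145.3 to 301.9 CPM in CON-GFP, from 416.3 to 816.4 CPM in FPC-GFP and from 890.0 to 1489 CPM in FPC-LIPA, and there libraries 36, 37 and 39 did not stand alone. The counts and leading members of each comparison with FPC-LIPA are therefore also given without libraries 36, 37 and 39. Errors of log2 fold changes are standard errors (SE).

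Of the 76 genes, 70 had enough reads to be tested with FPC-LIPA in the comparison and 69 between FPC-GFP and CON-GFP. Eif4e1b, Eif2c5 and Eif4a3l1 had no read in any library, and the highest counts of Eef1a2, Eif4a3l2 and Eef1akmt3 were 1, 2 and 19. The muscle and nerve isoform Eef1a2 was thus near 0 in these livers, and Eef1a1 carried the eEF1A signal. The remaining untested case was Eif5a2, which failed the read filter only in the diet comparison. Together the 76 genes took 1.14% ± 0.05 (SD, n = 6) of all counts in CON-GFP, 1.14% ± 0.07 (SD, n = 6) in FPC-GFP and 1.57% ± 0.44 (SD, n = 6) in FPC-LIPA. Levels of different genes were compared per kb of a representative transcript. In CON-GFP the mean level of Eef1a1 was 2750 CPM per kb, followed by Eef2 at 436.6, Eif1 at 276.9, Eif5a at 263.7 and Eif4a1 at 157.0 CPM per kb. The elongation messages Eef1a1 and Eef2 thus stood first. The other elongation factors, such as Eef1b2 at 131.0 CPM per kb, lay below the helicase Eif4a1. The scaffold Eif4g1 and the eIF3 subunits did so too.

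The first comparison asked what the FPC diet did in livers with the GFP virus. It was small for these genes: 4 rose and 8 fell in FPC-GFP against CON-GFP at an adjusted p under 0.05 (edgeR quasi-likelihood test with Benjamini-Hochberg adjustment over all genes). That is 5.80% and 11.6% of 69 tested members, beside 12.9% higher and 10.9% lower among all genes tested. With the added requirement of a 2-fold change, 0 rose and 1 fell, beside 4.76% and 2.44% of all genes. The groups did not overlap for 2 members that were higher, Eif3b and Eif3d, and for 4 that were lower, Eif3e, Eif3m, Eef1b2 and Eef1a1, beside 6.19% and 4.41% of all genes. The median log2 fold change was -0.05 over the members and 0.01 over all genes. When libraries were scaled by their total alone, which moved the median of all genes to 0.21, the split became 16 higher and 2 lower. In that setting 3387 of 14307 genes were higher and 692 lower. In a single fit over all 18 libraries 0 members rose and 2 fell, beside 877 and 475 of 14963 genes. At an unadjusted p under 0.05 in the same test, 9 members were higher and 2 lower in that fit. Within sample sheet numbers 55 to 68, which leaves 4 CON-GFP and 5 FPC-GFP livers, 1 rose and 3 fell, beside 1111 and 884 of 14640 genes.

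Of the 6 tested elongation factor genes 2 fell on the FPC diet, Eef1a1 and Eef1b2, and 0 rose. Among all genes tested 10.9% fell and 12.9% rose. Eef1a1 spanned 4004 to 5690 CPM in CON-GFP (median 4826) and 3348 to 3975 CPM in FPC-GFP (median 3702), so the log2 fold change was -0.44 ± 0.11 (adjusted p = 0.0137). Eef1b2, the nucleotide exchange subunit of eEF1B, spanned 209.3 to 336.0 CPM (median 234.9) in CON-GFP and 153.8 to 200.4 CPM (median 186.2) in FPC-GFP, and fell by 0.50 ± 0.13 (adjusted p = 0.0149) on the log2 scale. Every FPC-GFP liver lay below every CON-GFP liver for both genes. The translocase Eef2 did not pass, at 1002 to 1550 CPM and 1017 to 1414 CPM (log2 fold change -0.18, adjusted p = 0.316), and neither did Eef1g (0.01, adjusted p = 0.935).

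Of 14 tested subunits of eIF3, 1 rose and 3 fell on the diet, beside 12.9% higher and 10.9% lower among all genes tested. The subunits Eif3e, Eif3m and Eif3h fell, by 0.54 ± 0.15 (adjusted p = 0.0193), 0.46 ± 0.14 (adjusted p = 0.0252) and 0.35 ± 0.10 (adjusted p = 0.0216) on the log2 scale. Eif3b, which belongs to the core that all eukaryotes share, rose by 0.41 ± 0.14 (adjusted p = 0.0403). The level of Eif3b ran from 59.17 to 90.88 CPM in CON-GFP (median 81.56) and in FPC-GFP from 91.28 to 137.0 CPM (median 94.14). The gap between the groups was thus narrow, and the highest value belonged to FPC-GFP 11. The call of Eif3b was kept in 5 of 12 fits that left out 1 library each, that of Eif3m in 9 and that of Eif3h in 11.

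Of 13 tested members of the cap-binding group 2 were higher and 2 lower on the diet, beside 12.9% and 10.9% of all genes tested. Both long scaffolds rose: Eif4g3 by 0.47 ± 0.11 (adjusted p = 0.00644) and Eif4g1 by 0.47 ± 0.15 (adjusted p = 0.0359). Eif4g1 ran from 205.2 to 380.2 CPM in CON-GFP and from 376.4 to 496.8 CPM in FPC-GFP, so the groups touched in CON-GFP 7 and 8. The helicase cofactor Eif4b fell by 0.33 ± 0.11 (adjusted p = 0.0423), with 200.1 to 279.4 CPM against 170.5 to 219.0 CPM. Eif4e3, a relative at a low level of the cap-binding protein, fell by 0.90 ± 0.23 (adjusted p = 0.0121). The calls of Eif4b and Eif4g1 were kept in 3 and 5 of 12 fits that left out 1 library.

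The largest diet difference among all 69 tested members was in a repressor. Eif4ebp3, a 4E-binding protein at a low level in these livers, spanned 1.06 to 8.35 CPM in CON-GFP (median 3.51) and 0.27 to 2.00 CPM in FPC-GFP (median 1.06), and the log2 fold change was -2.00 ± 0.52 (adjusted p = 0.0133). CON-GFP itself was split, since livers 6 and 7 were within the FPC-GFP range and livers 1 and 3 were above 7 CPM. The more abundant 4E-binding proteins did not pass: Eif4ebp1 had a log2 fold change of 0.41 (adjusted p = 0.0623) and Eif4ebp2 of 0.18 (adjusted p = 0.303), and Eif4enif1, which carries eIF4E into the nucleus and to P-bodies, had 0.19 (adjusted p = 0.267).

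Of the 4 kinases that phosphorylate eIF2, the endoplasmic reticulum stress sensor Eif2ak3 (PERK) rose on the FPC diet. Its level ran from 9.97 to 18.14 CPM (median 11.88) in CON-GFP and from 15.65 to 29.69 CPM in FPC-GFP (median 18.17), and the log2 fold change was 0.66 ± 0.17 (adjusted p = 0.0141). One control, CON-GFP 7, lay within the FPC-GFP range, and FPC-GFP 11 lay above all others. The call was kept in all 12 fits that left out 1 library. The heme sensor Eif2ak1 (HRI) had a log2 fold change of 0.30 (adjusted p = 0.0611), the double-stranded RNA sensor Eif2ak2 (PKR) of 0.09 (adjusted p = 0.633) and the amino acid sensor Eif2ak4 (GCN2) of 0.13 (adjusted p = 0.459). None of the 13 start codon and eIF2 factors, the 5 eIF2B subunits, the 6 enzymes that modify elongation factors or the 2 termination factors passed. Among all genes tested 12.9% were higher and 10.9% lower.

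**Figure D1:**
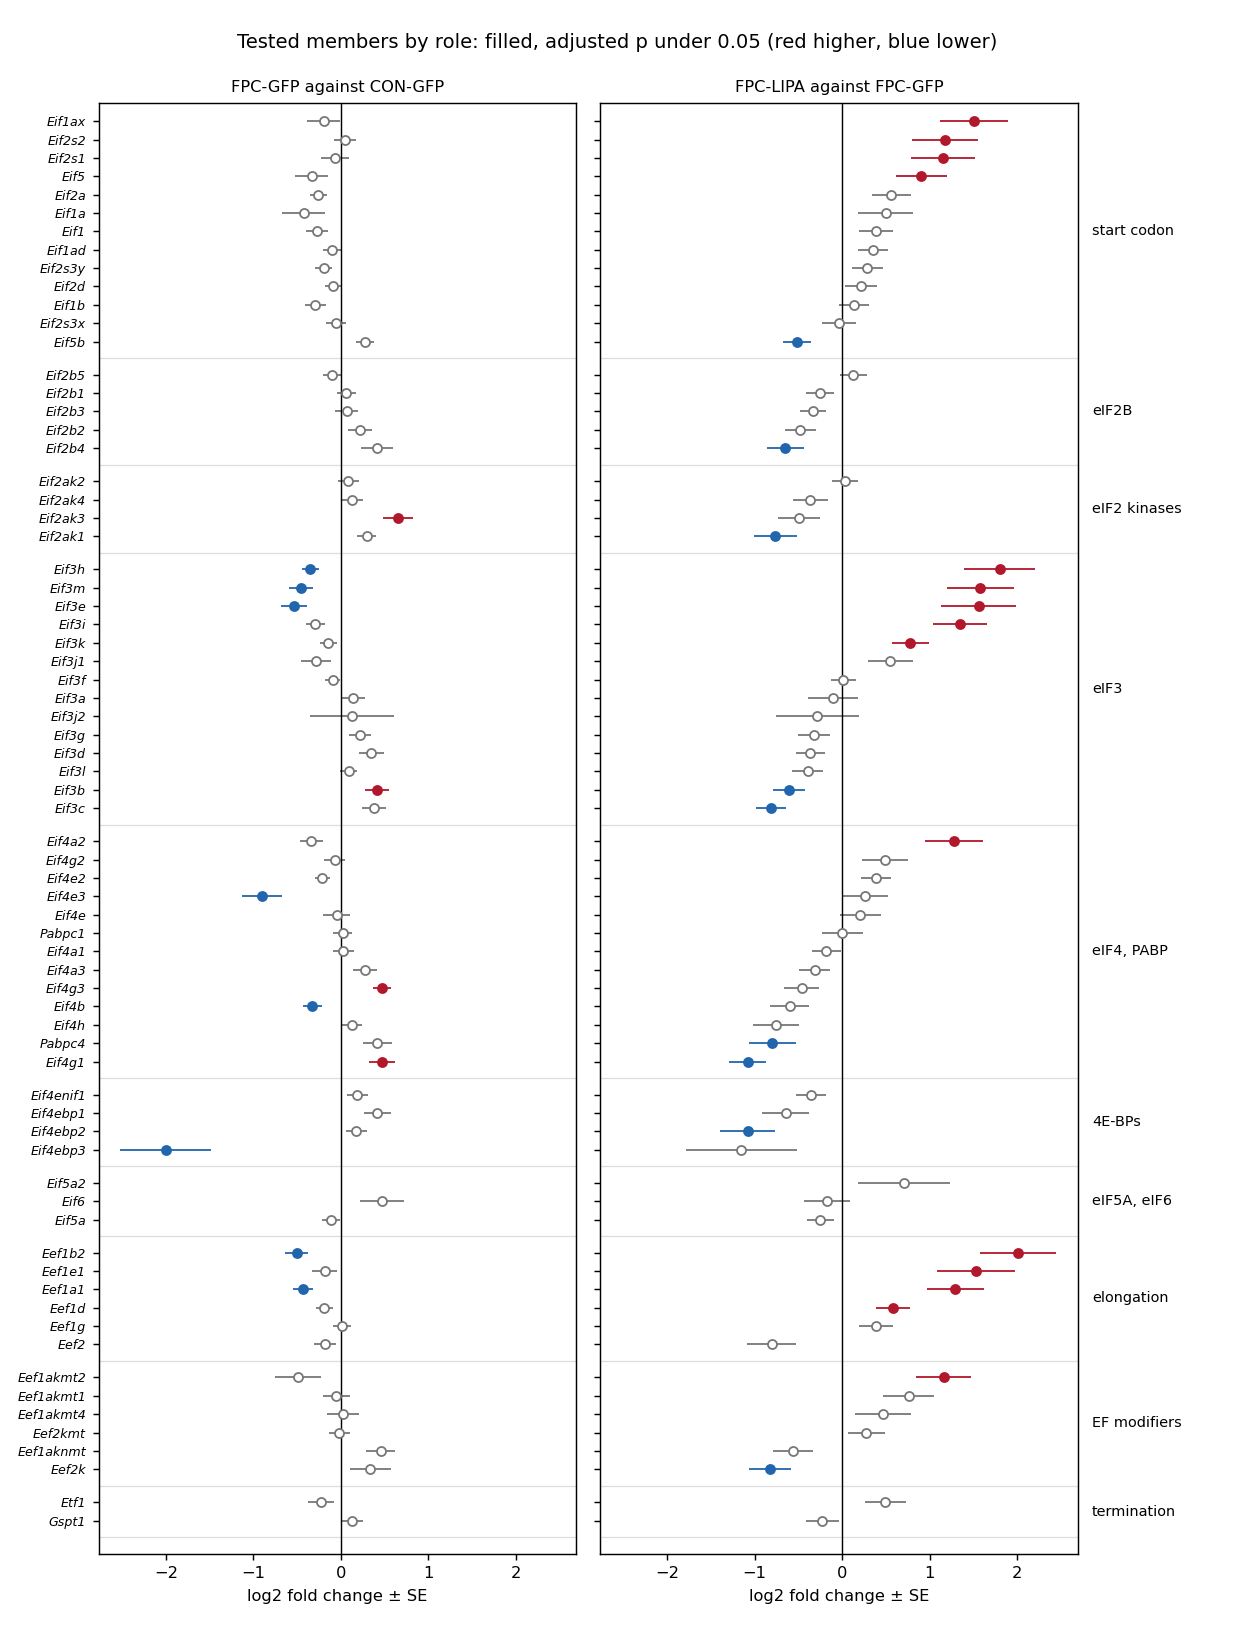
Log2 fold change with its SE for each tested member, in FPC-GFP against CON-GFP (left) and FPC-LIPA against FPC-GFP (right), ordered by role; filled points passed an adjusted p under 0.05, red for higher and blue for lower. On the left 4 points are red and 8 blue, on the right 15 are red and 9 blue, and the FPC-GFP livers enter both panels, with opposite signs.

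The next comparison asked what LAL overexpression added on the FPC diet. In FPC-LIPA against FPC-GFP 15 of 70 tested members rose and 9 fell. That is 21.4% and 12.9%, beside 14.4% higher and 6.87% lower among all genes tested. With a 2-fold change required, 12 rose and 2 fell, 17.1% and 2.86% of the members, beside 10.3% and 1.11% of all genes. For 0 of the members that were higher did the groups separate, beside 3.81% of all genes, and for 5 that were lower they did, beside 3.77%: Eif4g1, Eif4ebp2, Eif3c, Eif3b and Eif3d. The median log2 fold change was 0.02 over the members and 0.04 over all genes, so neither median lay far from 0. Scaled by library total alone, 11 rose and 3 fell, beside 1172 and 266 of 14620 genes.

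The same livers lay furthest from FPC-GFP in both directions. In all 15 members that rose, FPC-LIPA 36, 37 and 39 were the 3 highest of the 12 libraries, and in 8 of the 9 that fell they were the 3 lowest. FPC-LIPA 33 lay within the FPC-GFP range for 9 of the 15 and FPC-LIPA 34 for 4. Without libraries 36, 37 and 39, 0 members rose and 1 fell, Eif4g1, with 5 higher and 12 lower at an unadjusted p under 0.05 in the edgeR quasi-likelihood test, while 169 of all genes rose and 17 fell. The number that rose was 5, 7 and 6 without FPC-LIPA 36, 37 or 39 alone, and 15, 20 and 17 without FPC-LIPA 31, 33 or 34 alone. The number that fell was 2, 4 and 2 without FPC-LIPA 36, 37 or 39, and 11, 14 and 12 without FPC-LIPA 31, 33 or 34. Leaving out a single FPC-GFP liver gave 7 to 10 that rose and 2 to 5 that fell. Within libraries whose sample sheet numbers ran from 55 to 68, which leaves 5 livers per group and drops FPC-LIPA 37, 0 members passed in either direction, with 17 higher and 18 lower at an unadjusted p under 0.05 in the same test, beside 100 higher and 4 lower of all genes. The calls of 7 of the 24 members were kept in every fit that left out 1 library: Eef1b2, Eif3h, Eif3m, Eif1ax, Eif3i, Eif4g1 and Eif3c. In whole liver, more RNA per cell and more cells of a type cannot be told apart.

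Of 6 tested genes named as elongation factors 4 rose and 0 fell, beside 14.4% higher and 6.87% lower among all genes tested. Their median log2 fold change was 0.94. With libraries 36, 37 and 39 left out 0 rose and the median was 0.17. Without Eef1e1, which is not an elongation factor by function, 3 of 5 rose and the median was 0.58. Eef1b2 was at 153.8 to 200.4 CPM in FPC-GFP, and in FPC-LIPA 31, 33, 34, 36, 37 and 39 it was at 333.1, 188.4, 254.9, 1083, 1383 and 1097 CPM, so the log2 fold change was 2.01 ± 0.44 (adjusted p = 0.0141). Eef1a1 was at 3348 to 3975 CPM in FPC-GFP and at 5609, 3455, 5644, 13320, 8502 and 17270 CPM in the same FPC-LIPA livers, so the log2 fold change was 1.29 ± 0.33 (adjusted p = 0.0204). In both genes the level of libraries 36, 37 and 39 was far above the rest and that of library 33 was in the FPC-GFP range. The log2 fold changes without libraries 36, 37 and 39 were 0.53 (adjusted p = 0.123) and 0.43 (adjusted p = 0.188).

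Eef2 went the other way in the same livers. It was at 1017 to 1414 CPM in FPC-GFP and at 872.7, 902.8, 1106, 377.4, 335.7 and 511.3 CPM in FPC-LIPA, and the log2 fold change of -0.81 ± 0.28 did not pass (adjusted p = 0.0527). Its inhibitory kinase Eef2k fell by 0.83 ± 0.24 (adjusted p = 0.0288), from 5.20 to 12.76 CPM in FPC-GFP to 3.10 to 6.17 CPM in FPC-LIPA, with overlap. Eef1e1, a scaffold of the tRNA synthetase complex in spite of its name, rose by 1.53 ± 0.44 (adjusted p = 0.0296). Its value was 29.57, 62.46 and 39.24 CPM in libraries 36, 37 and 39, and livers 31, 33 and 34 had 10.90, 7.57 and 9.42 CPM, which lay in or just below the FPC-GFP range of 7.80 to 11.40 CPM. Without libraries 36, 37 and 39 its log2 fold change was 0.03 (adjusted p = 0.947). The eEF1B subunit Eef1d rose by 0.58 (adjusted p = 0.0494) and its partner Eef1g had 0.38 (adjusted p = 0.152).

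**Figure D2:**
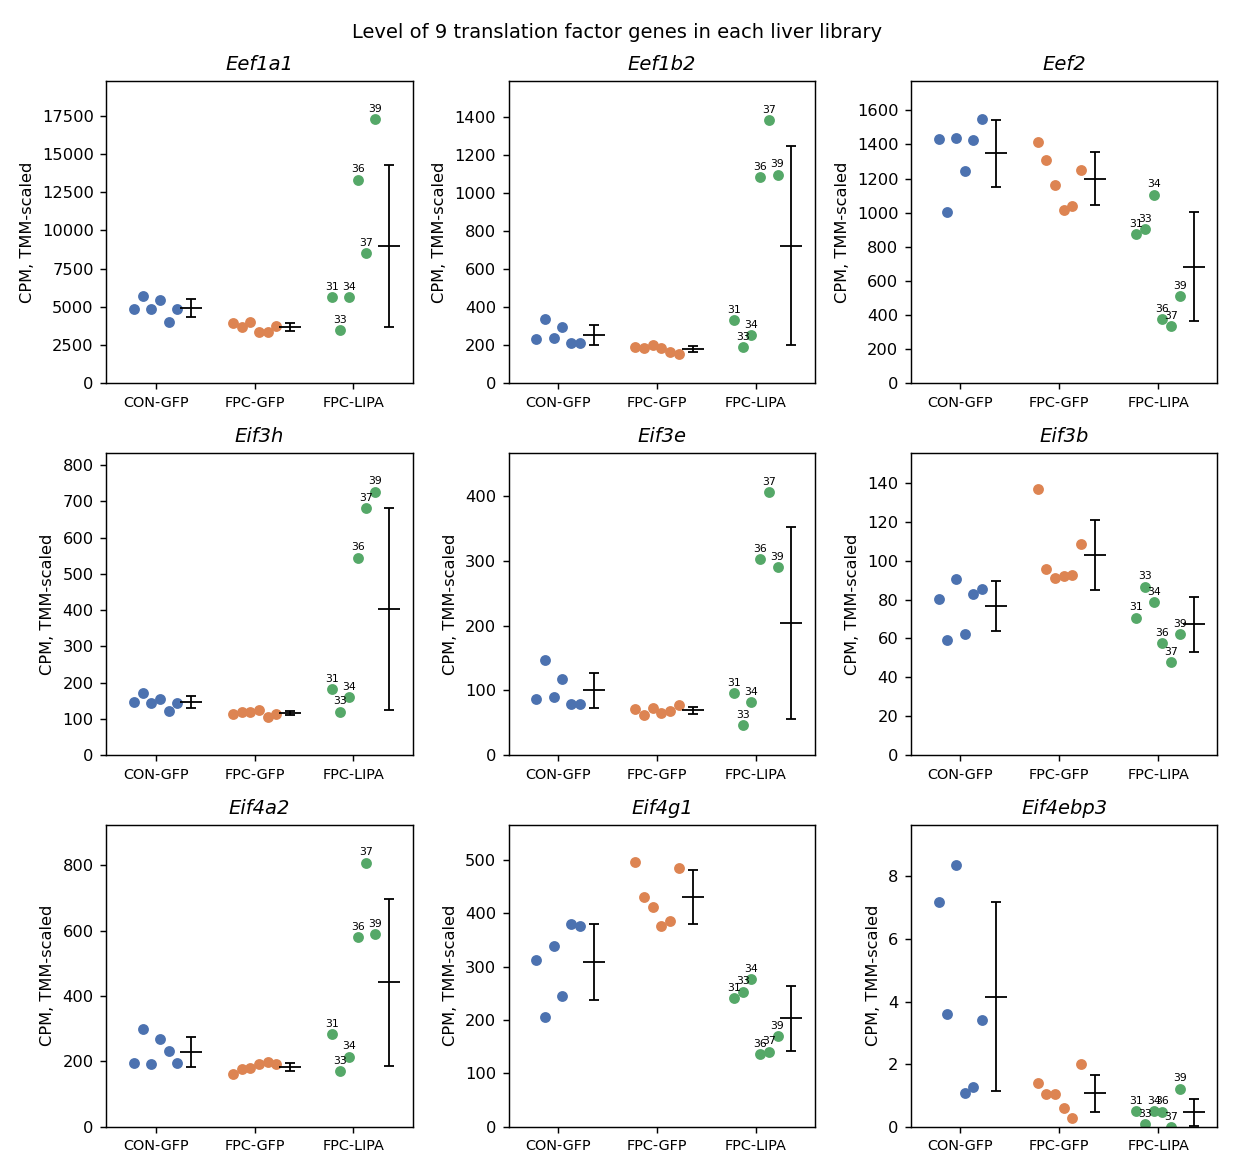
Level of 9 members in TMM-scaled CPM on linear axes from 0, 1 point per liver, with FPC-LIPA livers numbered and bars for the group mean and SD (n = 6). FPC-LIPA 36, 37 and 39 are the highest points for Eef1a1, Eef1b2, Eif3h, Eif3e and Eif4a2 and the lowest FPC-LIPA points for Eef2, Eif3b and Eif4g1.

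In eIF3, 5 of 14 tested subunit genes rose and 2 fell with LAL overexpression, beside 14.4% higher and 6.87% lower among all genes tested. When each library's trends on GC content and length were removed, 3 rose, Eif3h, Eif3i and Eif3m, and 1 fell, Eif3c. In that setting Eif3e, Eif3k and Eif3b did not pass (adjusted p = 0.147, 0.199 and 0.157). Eif3h was at 106.2 to 123.4 CPM in FPC-GFP and at 182.2, 119.6, 160.6, 544.7, 680.8 and 726.9 CPM in FPC-LIPA 31, 33, 34, 36, 37 and 39, so the log2 fold change was 1.80 ± 0.41 (adjusted p = 0.0157). Eif3e was at 62.59 to 77.60 CPM and at 95.19, 46.82, 82.28, 303.1, 406.9 and 290.9 CPM, so the log2 fold change was 1.56 ± 0.43 (adjusted p = 0.0251). Eif3m was at 49.27 to 56.56 CPM and at 85.20, 48.08, 63.18, 225.8, 248.1 and 269.6 CPM, so the log2 fold change was 1.58 ± 0.38 (adjusted p = 0.0183). Library 33 again lay among or below the FPC-GFP livers in each case. Eif3i and Eif3k also rose, by 1.34 ± 0.31 (adjusted p = 0.0164) and 0.78 ± 0.21 (adjusted p = 0.0249). Without libraries 36, 37 and 39 the log2 fold changes of these 5 subunits lay between 0.11 for Eif3e and 0.47 for Eif3i and none passed.

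The subunits that fell belong to the conserved core. Eif3c was at 112.8 to 158.0 CPM in FPC-GFP and at 76.98, 93.15, 89.52, 64.68, 56.59 and 56.98 CPM in FPC-LIPA, so the log2 fold change was -0.82 ± 0.18 (adjusted p = 0.0141). Eif3b was at 91.28 to 137.0 CPM and at 70.75, 86.68, 78.59, 57.50, 47.78 and 62.44 CPM, so the log2 fold change was -0.61 ± 0.18 (adjusted p = 0.0323). All 6 FPC-LIPA livers lay below all 6 FPC-GFP livers in both genes, including the livers that did not stand apart. With libraries 36, 37 and 39 left out the values were -0.56 (adjusted p = 0.0729) and -0.38 (adjusted p = 0.222). Eif3a, the largest core subunit, had -0.10 (adjusted p = 0.807), and the MPN subunit Eif3f had 0.01 (adjusted p = 0.951), at 57.82 to 67.98 CPM in FPC-GFP and 54.24 to 73.58 CPM in FPC-LIPA. The core did not move as a block, since Eif3i also belongs to it.

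The eIF4F complex showed the same contrast. The helicase Eif4a2 rose by 1.27 ± 0.33 (adjusted p = 0.0218), from 160.8 to 197.2 CPM in FPC-GFP to 284.3, 170.3, 214.7, 580.2, 807.4 and 589.9 CPM in FPC-LIPA 31, 33, 34, 36, 37 and 39. Without libraries 36, 37 and 39 the log2 fold change of Eif4a2 was 0.29 and did not pass (adjusted p = 0.345). Its close paralog Eif4a1 had a log2 fold change of -0.18 (adjusted p = 0.435). The scaffold Eif4g1 fell by 1.08 ± 0.21 (adjusted p = 0.0115), from 376.4 to 496.8 CPM to 240.9, 253.2, 277.4, 136.1, 140.8 and 169.8 CPM. Even the highest FPC-LIPA liver lay well below the lowest FPC-GFP liver, and Eif4g1 was the member that also passed without libraries 36, 37 and 39 (log2 fold change -0.74, adjusted p = 0.0333). Against CON-GFP, at 205.2 to 380.2 CPM, Eif4g1 overlapped and had a log2 fold change of -0.63 (adjusted p = 0.0688). Pabpc4, a poly(A)-binding protein, fell by 0.80 ± 0.27 (adjusted p = 0.0483), and the abundant Pabpc1 lay at 161.1 to 211.1 CPM in FPC-GFP and 125.6 to 336.9 CPM in FPC-LIPA (adjusted p = 0.998).

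All 4 eIF4E repressors had log2 fold changes below 0, and 1 of them passed, beside 6.87% lower among all genes tested. Eif4ebp2 was at 216.1 to 247.6 CPM in FPC-GFP and at 117.3, 198.2, 175.2, 48.04, 52.62 and 81.68 CPM in FPC-LIPA, so the log2 fold change was -1.08 ± 0.31 (adjusted p = 0.0300). The groups did not overlap, and the value without libraries 36, 37 and 39 was -0.53 (adjusted p = 0.115). Eif4ebp3 had -1.15 (adjusted p = 0.180), Eif4ebp1 -0.65 (adjusted p = 0.0839) and Eif4enif1 -0.36 (adjusted p = 0.138). Eif4e itself lay at 33.08 to 58.51 CPM in FPC-GFP and 24.08 to 62.22 CPM in FPC-LIPA, and the log2 fold change was 0.21 (adjusted p = 0.518).

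Factors of start codon recognition rose in 4 of 13 genes and fell in 1. Of all genes tested, 14.4% rose and 6.87% fell. Without libraries 36, 37 and 39, 0 of the 13 passed in either direction and the median log2 fold change was -0.02. When each library's trends on GC content and length were removed, 1 rose and 1 fell. Eif1ax, the X-linked eIF1A gene, was at 20.33 to 27.78 CPM in FPC-GFP and at 34.21, 20.35, 32.52, 74.32, 151.6 and 83.17 CPM in FPC-LIPA 31, 33, 34, 36, 37 and 39, so the log2 fold change was 1.51 ± 0.39 (adjusted p = 0.0211). The eIF2 beta subunit Eif2s2 was at 61.62 to 82.40 CPM and at 93.65, 49.71, 71.09, 266.3, 308.6 and 201.3 CPM, so the log2 fold change was 1.18 ± 0.38 (adjusted p = 0.0410). The alpha subunit Eif2s1, the one the stress kinases phosphorylate, rose by 1.15 ± 0.36 (adjusted p = 0.0380), and the gamma subunit genes Eif2s3x and Eif2s3y had -0.04 (adjusted p = 0.899) and 0.29 (adjusted p = 0.230). The difference of Eif2s2, with libraries 36, 37 and 39 left out, turned to -0.02 (adjusted p = 0.960). The GTPase activator Eif5 rose by 0.90 ± 0.29 (adjusted p = 0.0416), Eif1 had 0.39 (adjusted p = 0.146), and the subunit-joining GTPase Eif5b fell by 0.51 ± 0.16 (adjusted p = 0.0386).

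Of the eIF2 kinases, Eif2ak1 fell by 0.76 ± 0.25 (adjusted p = 0.0420). It was at 48.15 to 57.46 CPM in FPC-GFP and at 34.05, 48.94, 43.83, 19.01, 17.86 and 20.77 CPM in FPC-LIPA, so that library 33 alone overlapped. The summed level of the 5 red blood cell markers was highest in the same livers 36, 37 and 39 where Eif2ak1 was lowest. The part of red blood cells in this was not tested. Eif2ak3 had -0.49 (adjusted p = 0.141), Eif2ak4 -0.37 (adjusted p = 0.179) and Eif2ak2 0.04 (adjusted p = 0.871). In eIF2B the regulatory subunit gene Eif2b4 fell by 0.65 ± 0.21 (adjusted p = 0.0437) and the catalytic subunit gene Eif2b5 had 0.13 (adjusted p = 0.561). The call of Eif2b4 was kept in 2 of 12 fits that left out 1 library and that of Eif2ak1 in 3. The hypusinated factor Eif5a had -0.25 (adjusted p = 0.235), the ribosome anti-association factor Eif6 -0.17 (adjusted p = 0.652), which turned to 0.21 (adjusted p = 0.326) without FPC-GFP 11, and the release factors Etf1 and Gspt1 0.49 (adjusted p = 0.130) and -0.23 (adjusted p = 0.373).

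Since levels within 1 library share its depth and scaling, partner messages were also set against each other as ratios of CPM per kb. The pairs were chosen after their values were seen, so the ratios are a description with no test. Eif3h was 1.90 to 3.05 times Eif3b in FPC-GFP and 3.31 to 6.57 times in CON-GFP, and in FPC-LIPA 31, 33, 34, 36, 37 and 39 the ratio was 5.86, 3.14, 4.65, 21.5, 32.4 and 26.5. Eef1b2 was 0.196 to 0.292 of Eef2 in FPC-GFP, 0.217 to 0.534 in CON-GFP, and 0.608, 0.333, 0.367, 4.57, 6.56 and 3.42 in FPC-LIPA. In libraries 36, 37 and 39 the order of Eef1b2 and Eef2 was thus inverted. Eif4a2 was 0.798 to 1.26 times Eif4g1 in FPC-GFP, 1.27 to 3.61 times in CON-GFP, and 2.91, 1.66, 1.91, 10.5, 14.1 and 8.57 times in FPC-LIPA. For these 3 pairs all 6 FPC-LIPA ratios lay above the FPC-GFP range. That did not hold for 2 other pairs: Eif4a2 to Eif4a1 was 0.570 in FPC-LIPA 33, within the FPC-GFP range, whose highest value was 0.613, and Eif4ebp2 to Eif4e, at 3.53 to 6.24 in FPC-GFP, was 3.69 in FPC-LIPA 34, 7.11 in FPC-LIPA 33 and 0.666, 0.742 and 1.42 in FPC-LIPA 36, 37 and 39. In CON-GFP the highest ratio of each of the first 3 pairs was that of liver 2, the control with a GC trend below -0.4.

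**Figure D3:**
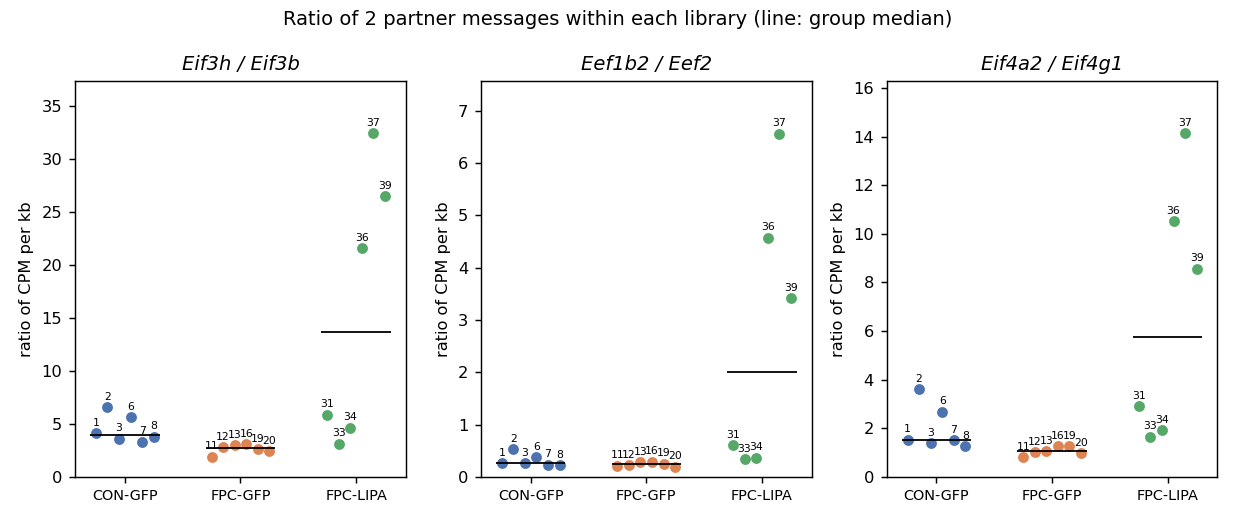
Ratio of CPM per kb of 2 partner messages within each library, on linear axes from 0, with livers numbered and a line for each group median. FPC-LIPA 36, 37 and 39 reach 21.5 to 32.4 for Eif3h to Eif3b, 3.42 to 6.56 for Eef1b2 to Eef2 and 8.57 to 14.1 for Eif4a2 to Eif4g1, and CON-GFP 2 is the highest control in each panel.

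Members that rose and fell differed in base composition and length. The 15 that rose in FPC-LIPA had transcripts with a median GC content of 44.1% and a median length of 1939 nt. The 9 that fell had medians of 52.4% and 4325 nt, the 46 that did not pass 50.2% and 2373 nt, and all genes tested 50.0% and 2735 nt. Across the 70 members the log2 fold change of FPC-LIPA against FPC-GFP had a Pearson r of -0.51 and a Spearman rho of -0.50 with GC content, and across all 14604 genes with a transcript model -0.37 and -0.41. These points share their libraries and are not independent. When each library's trends on GC content and length were removed, 9 members rose and 6 fell, beside 1240 and 756 of 14604 genes. In FPC-GFP against CON-GFP the correlation with GC content had the opposite sign (r = 0.29, rho = 0.40, 69 members). The part of base composition, length, ribosomal protein share and red blood cell markers in these differences was not tested.

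**Figure D4:**
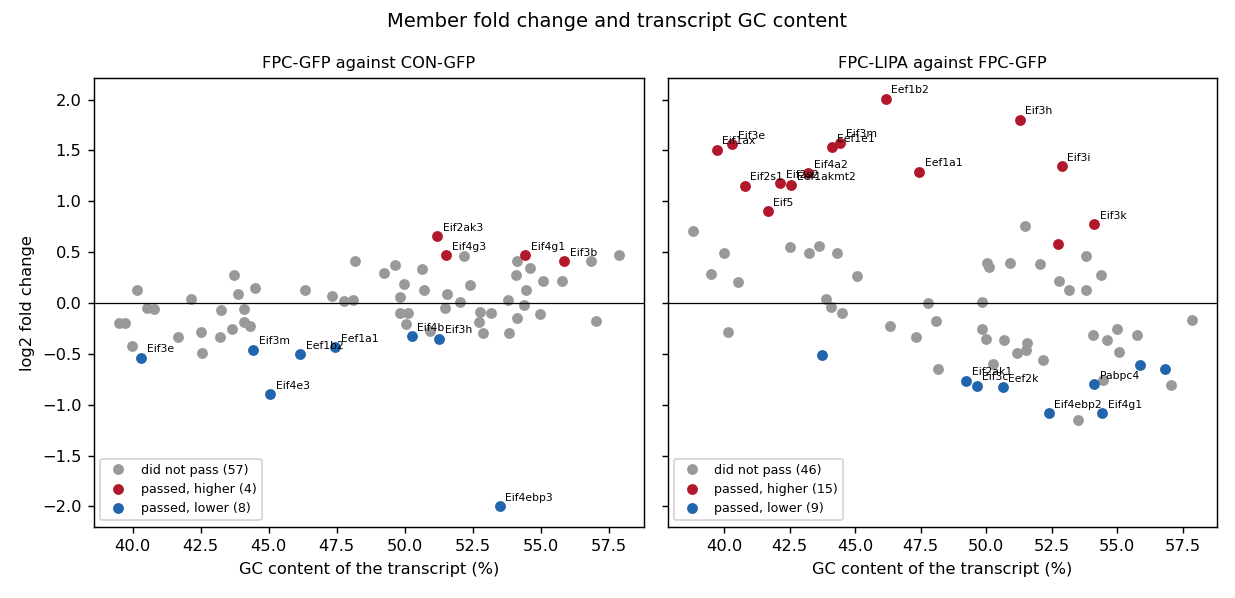
Log2 fold change against the GC content of the representative transcript (percent) for the tested members, in FPC-GFP against CON-GFP (left) and FPC-LIPA against FPC-GFP (right), colored by the adjusted p. On the right the red points have a median of 44.1% and the blue points of 52.4%.

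A list of 10 members known as TOP messages (Eef1a1, Eef1b2, Eef1d, Eef1g, Eef2, Pabpc1, Eif3e, Eif3f, Eif3h and Eif4b) was set beside the ribosomal protein genes. Of all genes tested, 12.9% rose and 10.9% fell on the diet, and 14.4% rose and 6.87% fell in FPC-LIPA against FPC-GFP. On the FPC diet 0 of these 10 TOP members rose and 5 fell, with a median log2 fold change of -0.26. With LAL overexpression 5 rose and 0 fell, with a median of 0.48, and without libraries 36, 37 and 39 0 rose and the median was 0.14. Of 78 tested cytosolic ribosomal protein genes 0 rose and 62 fell on the diet, and 64 rose and 0 fell in FPC-LIPA against FPC-GFP, with a median of 1.84. With libraries 36, 37 and 39 left out 21 of them rose and the median was 0.49, beside 169 of 15246 genes that rose. Within sample sheet numbers 55 to 68, 3 of them rose with LAL overexpression and 33 fell on the diet. There 100 of 14736 genes rose with LAL overexpression and 884 of 14640 fell on the diet. The TOP members did not share 1 direction: Eef2 and Eif4b had log2 fold changes of -0.81 and -0.60 in FPC-LIPA against FPC-GFP (adjusted p = 0.0527 and 0.0620), and Eif3f had 0.01.

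To show pyrimidine runs near the annotated start, 30 bases are given in the sense orientation for 5 TOP members and for Eif3m. These 5 were the TOP members with a start window, and the others on the list had none. Eif3m fell on the diet and rose with LAL overexpression. The 30 bases are centered on the run, and in Eef1b2, without a run, on the annotated start. Where a gene had several windows, one with a run was taken. From the start, the first base of the run lay at -5 in Eef1a1, 16 in Eef2, -4 in Eif3f, 11 in Eif4b and -20 in Eif3m. The bases printed for Eef2 thus begin after its annotated start. The sequences are RefSeq promoter windows of build GRCm38.p6, and capitals mark a C followed by at least 6 C or T bases.
Eef1a1, chr9:78481710-78481739, minus strand: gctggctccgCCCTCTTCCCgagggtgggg
Eef1b2, chr1:63176816-63176845, plus strand: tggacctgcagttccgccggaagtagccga
Eef2, chr10:81176635-81176664, plus strand: acgtcagcggtCTCTTCCgccgcagccgcc
Eif3f, chr7:108934404-108934433, plus strand: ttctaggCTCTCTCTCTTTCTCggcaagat
Eif4b, chr15:102073772-102073801, plus strand: acgccgcgccaCCCCCTCgcgctgctttac
Eif3m, chr2:105017027-105017056, minus strand: acggcaccgCTCTCTTTTCCggtcggcgtg
A run stood within 30 bases of the start in Eef1a1 and Eif3m, which rose in FPC-LIPA against FPC-GFP, in Eef2 and Eif4b, which fell in FPC-LIPA against CON-GFP, and in Eif3f, which passed in neither. Eef1b2, with the largest gain among the members, held none in its window. Of the 57 members with a window 21 (36.8%) held such a run, beside 29.7% of all 27025 genes with a window (26.5% of the 32851 windows). A run was found in 5 of the 11 members with a window that rose in FPC-LIPA against FPC-GFP (45.5%), 2 of 9 that fell (22.2%) and 12 of 34 that did not pass (35.3%). A match is a description of these letters, and annotated starts can lie some bases from the start used in liver.

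Set against CON-GFP, the FPC-LIPA livers carried both treatments, and this comparison shares its libraries with the other 2. Of 70 tested members 8 rose and 3 fell, 11.4% and 4.29%, beside 14.7% and 8.2% of all genes. With a 2-fold change required 7 rose and 1 fell, beside 11.8% and 3.25%. The groups did not overlap for 0 members that were higher and for 2 that were lower, Eif4b and Eif5a, beside 6.26% and 4.84%. Scaled by library total alone, 11 rose and 1 fell, beside 2367 and 535 of 14433 genes. Without libraries 36, 37 and 39 0 rose, also at an unadjusted p under 0.05 (edgeR quasi-likelihood test), and 2 fell. Of all 15113 genes tested in that setting 1763 rose and 957 fell. Within sample sheet numbers 55 to 68, which leaves 4 CON-GFP and 5 FPC-LIPA livers, 0 rose and 2 fell, beside 934 and 468 of 14914 genes. At an unadjusted p under 0.05 in the same test, 7 members were higher and 8 lower there. The 8 that rose were Eef1b2 (1.46), Eif3h (1.41), Eef1e1 (1.30), Eif1ax (1.26), Eif2s2 (1.18), Eif2s1 (1.05), Eif3i (1.02) and Eif3k (0.60), with log2 fold changes in parentheses and adjusted p from 0.0208 to 0.0495. Without libraries 36, 37 and 39 the value of Eef1e1 was -0.15 (adjusted p = 0.632).

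The 3 members that fell against CON-GFP were a repressor, an elongation factor and a helicase cofactor. Eif4ebp3 was at 7.17, 3.61, 8.35, 1.06, 1.26 and 3.42 CPM in CON-GFP 1, 2, 3, 6, 7 and 8, and at 0.504, 0.074, 0.504, 0.487, 0 and 1.22 CPM in FPC-LIPA 31, 33, 34, 36, 37 and 39. Only FPC-LIPA 39 reached into the control range, and the log2 fold change was -3.17 ± 0.68 (adjusted p = 0.00454) and -3.55 (adjusted p = 0.00829) without libraries 36, 37 and 39. Eif4b was at 200.1 to 279.4 CPM in CON-GFP and at 173.3, 139.3, 175.2, 91.33, 71.43 and 97.34 CPM in FPC-LIPA, so the log2 fold change was -0.95 ± 0.24 (adjusted p = 0.0114). Every FPC-LIPA liver was below every control, and without libraries 36, 37 and 39 the value was -0.54 (adjusted p = 0.0354). Eef2 fell by 1.00 ± 0.30 (adjusted p = 0.0260), and it did not pass without those libraries (log2 fold change -0.49, adjusted p = 0.0753).

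Other genes of the pathway were counted in the same way. Of all genes tested, 12.9% rose and 10.9% fell on the diet, and 14.4% rose and 6.87% fell in FPC-LIPA against FPC-GFP. Among factors of ribosome recycling and rescue and other initiation partners, 2 rose and 3 fell of 13 tested on the diet, and 4 rose and 3 fell of 14 in FPC-LIPA against FPC-GFP. Tpt1, an abundant TOP message, fell by 0.58 (adjusted p = 0.0155) on the diet and rose by 1.57 (adjusted p = 0.0186) with LAL overexpression, and the small-subunit protein Rack1 fell by 0.34 (adjusted p = 0.0298) and rose by 1.16 (adjusted p = 0.0225). In the mTOR and eIF4E-kinase list 4 rose and 1 fell of 14 on the diet, and 0 rose and 4 fell with LAL overexpression: Mknk2, which phosphorylates eIF4E, fell by 1.04 (adjusted p = 0.0247), Larp1, the TOP-binding repressor, by 0.92 (adjusted p = 0.0394) and Rptor, a subunit of mTORC1, by 0.80 (adjusted p = 0.0141). Of 21 cytosolic tRNA synthetase genes 8 rose and 0 fell on the diet, and 0 rose and 6 fell with LAL overexpression, among them Aars (-1.14, adjusted p = 0.0219) and Eprs (-0.67, adjusted p = 0.0204), while Nars had -0.06 (adjusted p = 0.861).

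Of 9 mitochondrial translation factors 0 passed on the diet and 1 fell with LAL overexpression, beside 6.87% lower of all genes, the elongation factor Gfm1 (-0.58, adjusted p = 0.0253), beside Tufm at -0.47 (adjusted p = 0.0619). In the diphthamide and hypusine enzymes, which modify eEF2 and eIF5A, 1 of 8 rose on the diet, and 1 rose and 1 fell with LAL overexpression. Of all genes 12.9% rose on the diet, and 14.4% rose and 6.87% fell with LAL overexpression. Dph3 rose by 1.84 (adjusted p = 0.0174) and Dhps had 0.64 (adjusted p = 0.0869). In the FPC-LIPA comparison 0 genes of any of these 5 pathway lists passed without libraries 36, 37 and 39.

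Some of these counts may be shared with processed pseudogenes, and how multi-mapping reads were treated is not given in the sources used here. Of 15 pseudogene rows named for a member 5 were tested. Eif3s6-ps2, a copy of Eif3e, fell by 0.83 on the diet (adjusted p = 0.00593) and rose by 1.86 (adjusted p = 0.0174) with LAL overexpression, and Eef1a1-ps1 rose by 1.34 (adjusted p = 0.0243) in the latter. Their levels reached at most 14.37 and 6.41 CPM, far below their parents. Eif4a-ps4 reached 62.46 CPM and had -0.56 (adjusted p = 0.0943) in the same comparison, and the counts of the eIF4A genes are uncertain if reads were shared with it.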

How the data were processed

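RNA from 18 mouse livers was measured by RNA-seq, with groups and mouse numbers taken from the labels. The authors trimmed paired NovaSeq reads with Trimmomatic, mapped them with HISAT2 2.1.0 to GRCm38 (mm10) and used Feature Counts of Subread for counting; they deposited raw counts for 55487 genes without normalization. A TruSeq stranded and a TruSeq unstranded kit are named without saying which library had which. The strand setting and the annotation version are not given in the sources used here. Of 23 columns in the table, 18 belong to the groups, and 5 columns of other samples were not used.

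Each comparison was fitted on its 12 libraries with filterByExpr, TMM scaling and the quasi-likelihood test of edgeR 4.0.16 in R 4.3.3, with Benjamini-Hochberg adjustment over all genes tested. Members passed at an adjusted p under 0.05 with any fold change, and the count with the study's 2-fold minimum is given beside it. The SE is the log2 fold change divided by the square root of F. CPM values were scaled by TMM over 18 libraries, and lengths and GC content came from GENCODE M21, which held 55227 of the genes. Totals of 16632146 to 37739301 counts leave counting error small for all but the lowest genes, so errors are over mice. On counts simulated for 14604 genes, with 200 changed by a log2 fold change of 2 in either direction, 189 were recovered with 10 false calls. These simulated libraries had no length trend and none that stood apart. The result checks the fit and gives no power or error rate for these data. Alternatives were DESeq2 1.42.0 (Wald test and size factors), edgeR's exact test, library size alone, no filter, all 18 libraries in one fit, sample sheet numbers 55 to 68, single libraries left out and removal of the length trend, and, chosen after seeing the data, removal of the GC trend and of both trends and leaving out FPC-LIPA 36, 37 and 39.

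The members, the lists and these tests were chosen with earlier results of these data known. Genes were named by rule: the 2 most abundant tested members of each role, the 5 largest increases and 5 largest decreases that passed in each comparison, all eIF2 kinases and eIF4E repressors, and in each pathway list the 2 most abundant genes and the one with the smallest adjusted p. Other members were named after their values were seen. Start windows were read from RefSeq promoters of GRCm38.p6, on the sense strand, from 30 bases before to 30 after the start.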

Additional observations from a re-analysis of the deposited data

Results flagged for a closer look

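In 9 of 108 checks of a named member within a group of 6 livers, 1 liver lay far from the other 5 by Dixon's criterion, where chance marks about 1 group in 20. FPC-GFP 11 accounted for 5 of them, each above the others. Its Eif6 level was 152.2 CPM beside 50.34 to 59.17 CPM, its Eif2b4 level 59.1 CPM beside 28.09 to 32.62 CPM, its Eif2b5 level 44.95 CPM beside 32.75 to 36.24 CPM, its Eif2ak3 level 29.69 CPM beside 15.65 to 20.18 CPM and its Eef2kmt level 13.8 CPM beside 9.431 to 11.02 CPM. CON-GFP 2 was above the other controls for Eif1ax, at 46.15 CPM beside 19.35 to 29.05 CPM, and for Etf1, at 117.4 CPM beside 69.57 to 84.84 CPM. In FPC-LIPA, library 37 was below the others for Eif5a, at 230.7 CPM beside 300.3 to 334.1 CPM, and library 39 was below them for Eif2ak2, at 8.804 CPM beside 12.17 to 13.51 CPM. Libraries 36, 37 and 39, being 3 of 6 in their group for the members that rose, were not marked by this criterion for those members.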

How the results depend on the processing

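Counts of members that passed depended on the fit. Between FPC-GFP and CON-GFP, 4 members were higher and 8 lower; the number higher was 7 with the DESeq2 Wald test, 0 with all 18 libraries in one fit, 2 without the length trend, 16 with library size alone, 2 with no filter, 1 within sheet numbers 55 to 68 and 0 at 2-fold, and the number lower was 13 without the GC trend, 2 with all 18 libraries, 2 with library size alone, 3 within these sheet numbers and 1 at 2-fold. Their median log2 fold change was -0.0455, and 0.157 with library size alone, where that of all genes was 0.208. Between FPC-LIPA and FPC-GFP, 15 were higher and 9 lower; the number higher was 9 without GC and length trends, and 0 both within the sheet numbers and without FPC-LIPA 36, 37 and 39, and the number lower was 15 with all 18 libraries, 3 with library size alone, 0 within the sheet numbers, 1 without libraries 36, 37 and 39 and 2 at 2-fold. Between FPC-LIPA and CON-GFP, 8 were higher and 3 lower; the number higher was 13 with all 18 libraries, 0 within the sheet numbers and 0 without libraries 36, 37 and 39, and the number lower was 6 with the DESeq2 Wald test, without the GC trend and without the length trend, 9 without both trends, 7 with all 18 libraries, and 1 with library size alone and at 2-fold. With 1 library left out at a time, the diet comparison gave 2 to 7 higher, 5 to 9 lower and a median of -0.0937 to 0.0263, the LIPA comparison 5 to 20, 2 to 14 and 0.00232 to 0.124, and FPC-LIPA against CON-GFP 0 to 13, 2 to 7 and -0.0304 to 0.0569. Without libraries 36, 37 and 39 the direction turned for Eif2s2 in FPC-LIPA against FPC-GFP (-0.0238) and for Eef1e1 against CON-GFP (-0.153); no other alternative turned a named member that passed. The sheet-number and 3-library settings test fewer livers. In FPC-LIPA against CON-GFP, 934 of all genes were still higher within the sheet numbers and 1763 without libraries 36, 37 and 39. The cause of the changes under the other settings was not tested. No paired analysis was possible because the groups share no mouse numbers.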
